A study of Drosophila melanogaster with 3 samples.

Results

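Divergent promoters are stretches of DNA from which a pair of genes is transcribed in opposite directions, with the start sites head to head. Of the 5595 regions in the optimal peak set of Ets97D-eGFP, 1602 (28.6%) had such a promoter under them. A region was counted when its summit lay within 500 bp of a minus-strand and of a plus-strand protein-coding transcription start site of different genes, the minus-strand start having the lower coordinate (dm6 build, Release 6 annotation). The other promoter peaks were 2506 unidirectional ones, whose start sites within 500 bp were all on 1 strand, and 10 with start sites on both strands that were not head to head. The remaining 1477 peaks had no protein-coding start site within 500 bp.

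The peaks came from chromatin immunoprecipitation with sequencing of whole *Drosophila melanogaster* embryos aged 0 to 24 h, with both sexes pooled. All 3 biological replicates, which formed 1 group, came from a transgenic line named Delg-GFP in which GFP was joined to the C terminus of Ets97D, and chromatin was precipitated through the GFP. No condition was compared with another. Embryos of this age span hold every embryonic cell type, so a region bound in few cells and a region bound weakly in many cannot be told apart. The promoter that drove the fusion gene is not given in the sources used here, and the control libraries behind the deposited signals were not analysed here.

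Ets97D, also called Delg, has an ETS DNA-binding domain and is related to GABP alpha, the DNA-binding subunit of mammalian GABP. ETS factors recognise words built on a GGAA core, and in human cells sites for GABP are common in bidirectional promoters. The fly genome is compact, and many of its housekeeping genes share a divergent promoter with a neighbour. Several other words are known from such fly promoters: TATCGATA, the DNA replication-related element (DRE) bound by DREF, GGTCACAC, the element called Motif 1, and CGATA, the core word of the boundary protein BEAF-32.

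The stretches between the paired start sites of 8 divergent-promoter peaks show what such a promoter looks like. They were taken from the NCBI RefSeq sequence of Release 6 and are written 5′ to 3′ on the plus strand, so the gene named first is transcribed to the left and the gene named second to the right. Capitals mark CCGGAA, TATCGATA, GGTCACAC and CGATA on either strand, and a word on the minus strand appears as its reverse complement, such as TTCCGG for CCGGAA. The first 6 are the strongest members eligible for display with an exon-free stretch of 40 to 300 bp, and among them are the strongest with each word. In the order given they lie at chr3L:8600880-8601005, chr3R:25247515-25247657, chr3L:20798376-20798644, chr3R:11216288-11216534, chr3R:26059268-26059495, chr2L:419653-419951, chr2L:9967230-9967312 and chrX:10385862-10385959 of dm6, in the intergenic space of each pair. The last 2 were chosen after their values were seen. Among the same eligible members they are the strongest with start sites under 100 bp apart and the strongest with CCGGAAG between the start sites.
Nelf-E/RpL14: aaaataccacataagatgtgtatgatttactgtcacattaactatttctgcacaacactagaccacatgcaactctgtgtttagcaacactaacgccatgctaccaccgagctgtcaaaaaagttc
RpS27/Nup37: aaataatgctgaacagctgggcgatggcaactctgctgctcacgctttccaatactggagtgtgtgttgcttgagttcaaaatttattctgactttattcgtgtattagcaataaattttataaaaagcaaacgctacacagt
CG3698/tzn: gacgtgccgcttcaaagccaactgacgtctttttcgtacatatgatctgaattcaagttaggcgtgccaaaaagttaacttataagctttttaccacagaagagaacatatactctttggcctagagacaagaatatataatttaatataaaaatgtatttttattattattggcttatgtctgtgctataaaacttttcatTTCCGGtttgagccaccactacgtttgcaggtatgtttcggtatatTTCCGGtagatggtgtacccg
RpS25/CG4820: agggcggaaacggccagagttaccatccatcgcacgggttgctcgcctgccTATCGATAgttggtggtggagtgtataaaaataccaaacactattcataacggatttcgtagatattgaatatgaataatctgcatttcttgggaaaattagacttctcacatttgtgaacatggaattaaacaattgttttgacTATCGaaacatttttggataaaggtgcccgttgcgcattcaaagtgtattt
RpL34a/Trmt61: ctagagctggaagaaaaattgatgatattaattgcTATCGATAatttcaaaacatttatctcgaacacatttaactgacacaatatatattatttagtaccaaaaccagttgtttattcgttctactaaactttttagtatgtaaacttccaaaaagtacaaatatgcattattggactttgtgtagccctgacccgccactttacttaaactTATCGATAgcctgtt
CG13690/RpLP1: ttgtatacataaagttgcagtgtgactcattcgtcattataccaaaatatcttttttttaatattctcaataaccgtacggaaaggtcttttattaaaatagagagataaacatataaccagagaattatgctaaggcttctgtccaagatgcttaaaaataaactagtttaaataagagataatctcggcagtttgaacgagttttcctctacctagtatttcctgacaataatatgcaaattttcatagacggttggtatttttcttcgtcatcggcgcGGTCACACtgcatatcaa
Dref/RpL13: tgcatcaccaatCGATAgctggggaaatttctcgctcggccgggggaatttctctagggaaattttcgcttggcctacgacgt
Psf3/flw: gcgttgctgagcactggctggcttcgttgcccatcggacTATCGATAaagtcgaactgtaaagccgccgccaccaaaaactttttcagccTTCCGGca

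Nelf-E/RpL14 and RpS27/Nup37, with the highest signals of the set, held none of the 4 words between their start sites. CG3698/tzn held CCGGAA in 2 places, both in the part nearer the start of tzn. RpL34a/Trmt61 held TATCGATA in 2 places, near opposite ends. Psf3/flw, which joins a subunit of the GINS replication complex to a catalytic subunit of protein phosphatase 1, held TATCGATA near its middle and CCGGAAG at the flw end. Of the 618 eligible members with an exon-free stretch of 40 to 300 bp, 27 (4.37%) had CCGGAA between the start sites, 114 (18.4%) had TATCGATA, 61 (9.87%) had GGTCACAC and 380 (61.5%) had CGATA. Stretches of equal length elsewhere were not counted, so these shares only describe the members and do not show that a word is frequent there.

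Divergent-promoter peaks made up 38.9% of all promoter peaks. The same rule applied to the 5595 regions of highest signal in each replicate gave 29.3%, 30.2% and 27.2% of those regions in replicates 1, 2 and 3, a mean of 28.9% ± 1.55 (SD, n = 3). Chromosome arms 2L, 2R, 3L, 3R and X held 291, 319, 312, 422 and 254 of the members, which were 36.4% to 42.2% of the promoter peaks on each of those arms. Chromosome 4 held 4 members, 11.8% of its 34 promoter peaks, and the Y chromosome none. The members fell on 1403 distinct gene pairs with 2797 genes in them. Those are 54.9% of the 5097 genes with any promoter peak and 20% of all 13968 protein-coding genes.

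Most members had only their own pair close by. Exactly 2 genes had a start site within 500 bp of the summit at 1517 members (94.7%), 3 genes at 78, and 4 or more at 7. The most, 10 genes, lay around a summit with a signal of 340 at the pre-mod(mdg4) genes, which supply precursors of the trans-spliced transcripts of mod(mdg4), followed by 5 at PIG-M/NC2alpha with a signal of 515. The signal is the deposited value of each region, from ChIP against control, on a scale that the sources used here do not give. At the edge of the rule, 72 members had their farther start site over 450 and up to 500 bp from the summit and a median signal of 189, and a limit of 550 bp would have added 50 peaks with a median signal of 149.

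Annotated divergent promoters carried Ets97D-eGFP more often than promoters without a partner. A head-to-head pair was defined from the annotation alone, as genes whose start sites face away from each other at most 1000 bp apart, and was called occupied when a summit lay within 500 bp of both start sites. In the optimal set 1504 of 2667 such pairs were occupied (56.4%), compared with 1867 of 8916 genes without a head-to-head partner (20.9%). The occupied share of pairs was 56.3%, 58.0% and 53.5% in the strongest regions of replicates 1, 2 and 3, and that of genes without a partner 20.1%, 20.8% and 20.1%. Every replicate thus had the pairs higher, with no overlap. The difference averaged 35.6 percentage points ± 1.94 (SD, n = 3 replicates; exact two-sided sign-flip permutation test over replicates, p = 0.25, the smallest that 3 replicates allow). The zone in which a summit counted was shorter for pairs, with a median of 700 bp against 1001 bp around a lone start site.

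The occupied share was lowest at the widest pairs. It was 78.7% of 427 pairs with start sites under 100 bp apart, 64.0% of 353 pairs at 100 to under 200 bp, 72.4% of 544 at 200 to under 300 bp and 66.0% of 668 at 300 to under 500 bp. At 500 to 1000 bp it was 15.9% of 675 pairs, where the zone within 500 bp of both start sites has a median of only 316 bp. With the same zone for every gene, a summit within 500 bp of any of its own start sites, 79.1%, 64.3%, 73.6% and 68.8% of genes in the first 4 classes of distance were occupied, 40.5% in the widest, and 63.9% of all 5052 genes with a partner. That count by gene was added after the data were seen. Genes with and without a partner differ in what they do, and the part of gene function in this difference was not tested.

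**Figure D1:**
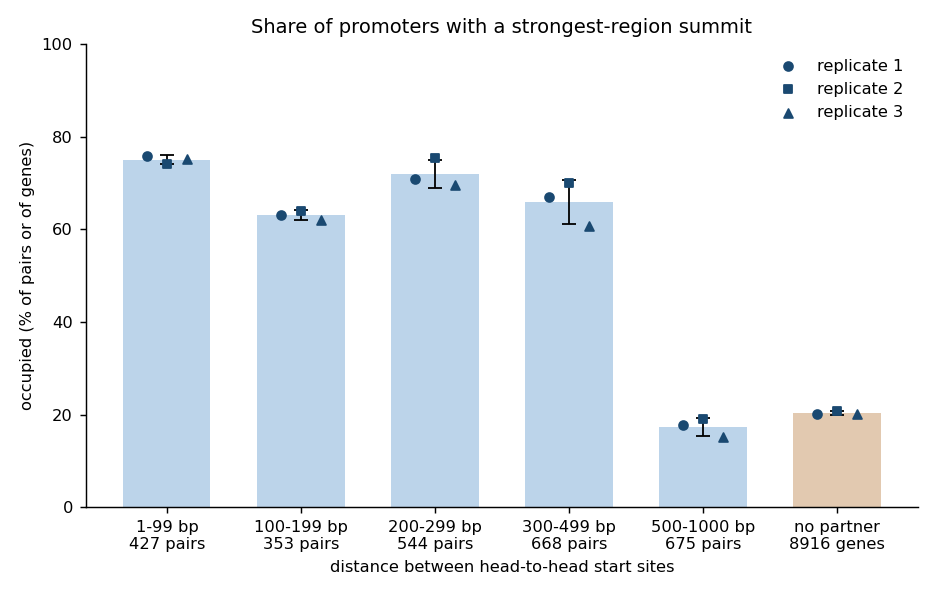
Occupied share of annotated head-to-head pairs by the distance between their start sites, and of genes without a head-to-head partner. Bars are means over 3 replicates of the share (%) with a strongest-region summit within 500 bp of both start sites (or of the gene's start), error bars are SD, and symbols are replicates. The first 4 classes lie between 60.8% and 75.9% in every replicate, against 20.1% to 20.8% without a partner.

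Most summits lay between the paired start sites. Of the 1602 summits, 1316 (82.1%) fell between the start sites. The share was 82.1%, 80.5% and 79.1% in replicates 1, 2 and 3, a mean of 80.6% ± 1.48 (SD, n = 3). Relative to the nearest start site the median summit position was -47.5 bp, with quartiles of -90 and -13.25 bp (negative positions are upstream of a start). The median at unidirectional promoter peaks was -56 bp. There 82.8% of the summits lay upstream of the nearest start site, close to the 82.1% of member summits between their start sites. Of the summits, 738 lay nearer the minus-strand start and 864 nearer the plus-strand start.

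The start sites of a pair lay a median of 274 bp apart, with quartiles of 141 and 369 bp and a range of 1 to 856 bp. Where they were under 100 bp apart, 52.9% of the 293 summits fell between them and the nearest start lay at a median of -3 bp. The share between was higher in the wider classes, at 77.7% of 206, 87.0% of 438, 91.7% of 544 and 100% of 121 summits in order of distance. A summit had to lie within 500 bp of both start sites, so the room outside a pair shrinks as their distance grows. In the widest class no such room is left, and its 100% is fixed by the rule. The median position to the nearest start was -38 bp at 100 to under 200 bp, -60 bp at 200 to under 300 bp, -70 bp at 300 to under 500 bp and -120 bp in the widest class. At 300 to under 500 bp, 372 of 544 summits (68.4%) were nearer to a start site than to the midpoint of the pair. That share was 68.3% under 100 bp, 44.7% at 100 to under 200 bp, 49.8% at 200 to under 300 bp and 55.4% at 500 to 1000 bp. The gene nearest to the summit was the same in all 3 replicates at 57.5% of the members in the narrowest class and at 91.2% in the widest, and at 1151 of all 1538 members with a region in each replicate's full list (74.8%). The summits of the 3 replicates spread over a median of 45 bp at these members.

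**Figure D2:**
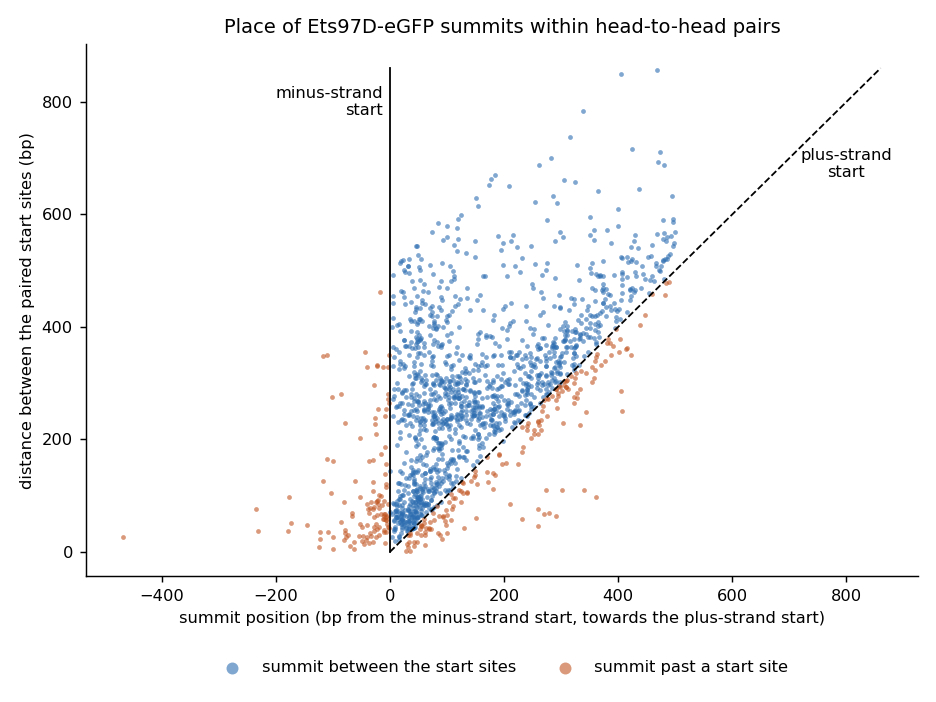
Position of each of the 1602 summits relative to the paired start sites. The horizontal axis gives bp from the minus-strand start towards the plus-strand start and the vertical axis the distance between both (bp); the solid line is the minus-strand start, the dashed line the plus-strand start, and points between them (blue, 1316) lie between the start sites. At 300 to under 500 bp most points (68.4%) lie nearer a line than the midpoint between both, against 44.7% at 100 to under 200 bp and 49.8% at 200 to under 300 bp.

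Some pairs carried more than 1 summit. At 197 gene pairs there were exactly 2 member peaks, and at 163 of these (82.7%) 1 summit was nearest each gene. Over the 198 pairs with more than 1 peak the outermost summits lay a median of 205 bp apart and the start sites a median of 328 bp apart. In the strongest regions of replicates 1, 2 and 3, 240, 255 and 192 gene pairs had 2 summits, with 1 nearest each gene at 80.0%, 76.9% and 78.6% of them. Another optimal summit lay within 250 bp of 345 divergent-promoter peaks (21.5%) and of 11.9% of the unidirectional ones, and the shares were 25.7% ± 2.13 and 15.9% ± 2.52 (SD, n = 3) over replicates, a comparison added after the data were seen. At 162 of the 198 pairs the outermost summits were at most 250 bp apart. No summits of the optimal set or of the replicates' strongest regions were much under 200 bp apart, so closer binding events would not appear as separate peaks. Summits held that far apart will often be nearest different genes of a pair, so the 82.7% is a description of these peaks only.

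The stronger peak of these pairs had a median of 1.76 times the signal of the weaker. RpL28/eIF1 joins a ribosomal protein gene to the gene of the initiation factor that helps select the start codon. Its summit near RpL28 had a signal of 3804, and its summit near eIF1 one of 1013. RpL32/CG7943 had 3035 and 375, RpL36/Mybbp1A 2934 and 318, and RpL18/Neos 2421 and 733. At these 4 pairs both summits were listed under the same region start and end. In each of these 4 pairs the higher summit was the one nearer the ribosomal protein gene. The other ribosomal protein pair with 2 peaks, CG17271/RpS20, differed, with signals of 595 and 167. Its higher summit lay at -163 bp of RpS20 and -170 bp of CG17271, and its lower summit at 37 bp of RpS20.

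Divergent-promoter peaks were slightly stronger than unidirectional ones. Their median signal was 181, that of unidirectional promoter peaks 167 and that of all optimal peaks 162. In the strongest regions of replicates 1, 2 and 3 the median signal of the divergent class exceeded that of the unidirectional class by 0.15, 0.15 and 0.12 on the log2 scale, a mean of 0.14 ± 0.014 (SD, n = 3; exact two-sided sign-flip permutation test over replicates, p = 0.25, the smallest possible). The difference was larger than its spread between replicates but small beside the range of the members, from 89.2 to 11499.9. In the optimal set the difference was 0.12, and 0.11 without ribosomal protein promoters. It was 0.23 when start sites had to lie within 250 bp, and 0.032 among the 50% of peaks with the highest signal. Members were 33 of the 100 strongest peaks, and by quintile of signal, from the strongest down, they were 35.1%, 33.8%, 30.2%, 26.1% and 18.0% of the peaks.

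Signal also varied with the distance between the start sites. The median relative signal, each region's signal divided by the median of its replicate's 5595 strongest regions, was highest at 100 to under 200 bp, at 1.33 ± 0.026 (SD, n = 3). It was 1.09 ± 0.012 under 100 bp, 1.18 ± 0.021 at 200 to under 300 bp, 1.09 ± 0.028 at 300 to under 500 bp and 1.01 ± 0.091 at 500 to 1000 bp. In every replicate the 100 to under 200 bp class was the highest, with 1.35, 1.30 and 1.33.

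Of the members, 1254 (78.3%) had a summit among the strongest regions of all 3 replicates within 150 bp, against 72.3% of unidirectional peaks and 70.2% of all optimal peaks. Within quintiles of signal the classes were closer. From the strongest quintile down the shares were 99% and 99.5%, 97.9% and 99.4%, 89.6% and 92.1%, 55.8% and 52.0%, and 14.4% and 10.4% for divergent and unidirectional peaks. Across members the Spearman correlation of signals between replicates was 0.80 for replicates 1 and 2, 0.81 for 1 and 3 and 0.77 for 2 and 3 over 1538 members, as a description, since all points of a replicate share its library.

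The strongest members were mostly promoters of ribosomal protein genes. Of the 25 of highest signal that were found in all 3 replicates, 20 had a cytosolic ribosomal protein gene in the pair, and 24 had their summit between the start sites. The exception was the strongest of all peaks, Ripalpha/RpL7 at chr2L:10200664-10201466. Its relative signal was 72.8, 67.9 and 69.0 in replicates 1, 2 and 3. The start sites there were only 30 bp apart, and the summit lay 24 bp downstream of the start of RpL7 (FBgn0005593), a protein of the large ribosomal subunit. Across the 25 the coefficient of variation between replicates had a median of 6.51%, against 17.4% over all members with a region in each replicate.

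Nelf-E/RpL14 joins a subunit of the negative elongation factor that holds paused RNA polymerase II to a ribosomal protein gene. Its relative signal was 61.8, 61.5 and 58.7, and its summit lay 41 bp upstream of RpL14 (FBgn0017579) and 86 bp upstream of Nelf-E. RpS27/Nup37 joins a protein of the small ribosomal subunit to a nuclear pore protein and had 51.8, 55.4 and 48.7, with the summit at -1 bp of RpS27 (FBgn0039300) and -143 bp of Nup37. These peaks and that of RpL7 did not overlap one another in relative signal across the replicates.

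RpL41/NaCP60E, whose second gene belongs to the sodium channel family, had a relative signal of 45.1, 44.1 and 43.9. RpL19/CG3776 had 40.6, 44.7 and 37.0, which overlapped it. Further down, Dph4/RpL13A, with a gene of diphthamide synthesis, had a mean of 35.6 ± 0.741 (SD, n = 3), and the ribosomal stalk genes RpLP0 and RpLP1 had 33.9 ± 1.66 and 19.2 ± 1.68 at CG7130/RpLP0 and CG13690/RpLP1. RpS25/CG4820 had 31.6 ± 0.821. Dref/RpL13, with a mean of 16.2 ± 1.64, pairs a ribosomal protein gene with the gene of DREF, the factor that binds TATCGATA.

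The 5 members of this group without a ribosomal protein gene began with CG3698/tzn at chr3L:20798290-20798945, which had a relative signal of 38.0, 36.4 and 33.4 and CCGGAA near the summit. Kap-alpha3/Son, with an importin alpha gene, had 25.6, 25.3 and 22.8. The pair of ro, a homeobox gene of eye development, and T48, which acts in mesoderm invagination, had 20.3, 20.6 and 18.8. Spase22-23/mask, with a signal peptidase subunit, had 20.7, 20.5 and 17.1. CG34290/Uck, with a uridine-cytidine kinase, had 18.9, 18.6 and 18.7 and held both CCGGAAG and TATCGATA within 50 bp of the summit. All replicates of Kap-alpha3/Son were above those of the next 3, which did not differ from one another beyond their spread.

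**Figure D3:**
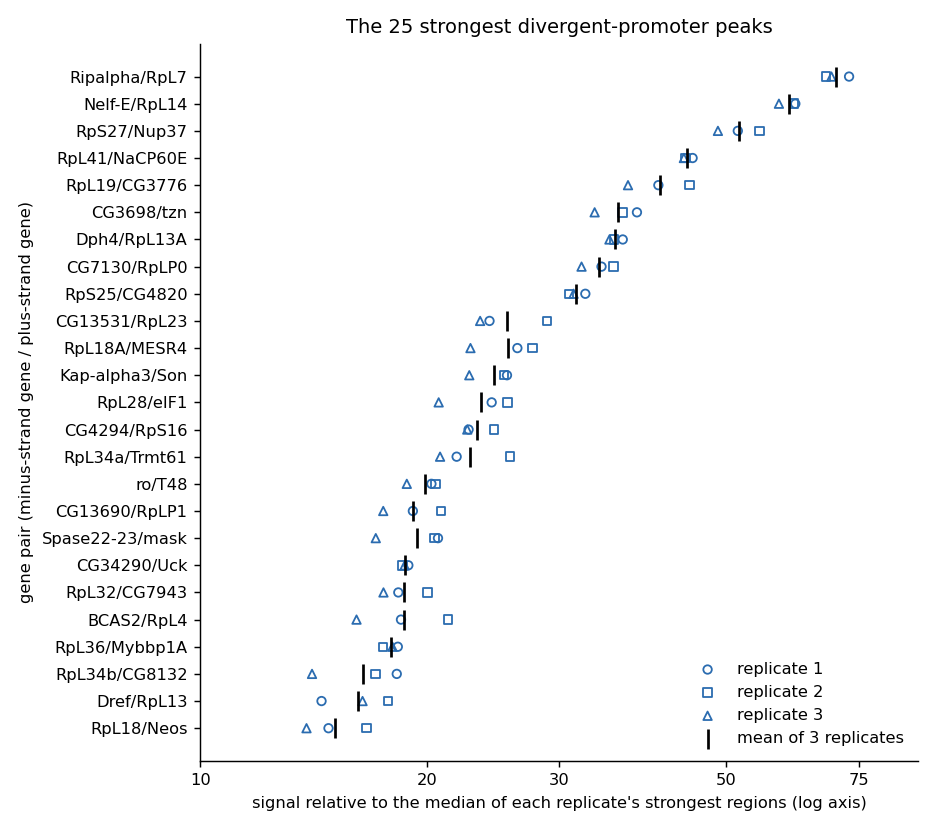
Relative signal (log axis) of the 25 strongest divergent-promoter peaks found in all 3 replicates, 1 line per gene pair, with symbols for the replicates and a bar for their mean. Means run from 69.9 at Ripalpha/RpL7 to 15.1 at RpL18/Neos, and the replicates of each pair lie close together on this axis.

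At ribosomal protein pairs the summit lay at the ribosomal side. Of 86 cytosolic ribosomal protein genes, 39 were in the pair of a member, with 44 peaks between them and a median signal of 2280. No pair joined 2 of these genes. High signal was not limited to divergent promoters, since other promoter peaks of this list had a median signal of 1611. Of the 86 genes, 84 had any promoter peak. Of those, 46.4% were in member pairs, against 54.9% of all genes with a promoter peak. The summit was nearer the ribosomal start at 37 of the 44 (84.1%), with a median position of -61 bp to that start and -229.5 bp to the partner's. By gene, counting each gene's strongest peak, 36 of 39 were the nearest gene, and the share was 87.5%, 89.7% and 84.2% in replicates 1, 2 and 3. Of the 33 members among the 100 strongest peaks, 26 were of this kind. The 44 peaks held TATCGATA in 8 cases, CGATA in 16, GGTCACAC in 3 and CCGGAA in 6.

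Mitochondrial ribosomal protein genes differed in this respect. Of 73, 46 (63.0%; 62.1% ± 2.85 over replicates) were in the pair of a member, the highest share of the 18 gene lists in the optimal set. Over replicates the mean of the small chaperonin CCT list was higher, at 66.7% ± 19.1. Of all protein-coding genes 20% were in member pairs. A head-to-head partner was annotated for 58 of the 73 genes (79.5%), against 36.2% of all genes. Among genes with a partner, 79.3% of this list and 55.4% of all genes were in a member pair. Only 18 of those 46 (39.1%) were the gene nearest to the summit, and the share was 39.1%, 42.6% and 32.6% in replicates 1, 2 and 3, below all 3 values of the cytosolic list. Over all genes in member pairs it was 50%. Their median signal was 172, close to the 192 of all genes in member pairs. The strongest was mRpS23 with CenG1A, with a relative signal of 4.82, 4.16 and 6.10 and the summit at -369 bp of mRpS23 but -123 bp of CenG1A. At mRpL23/CG9004 it was 4.51, 4.86 and 4.88, with the summit 53 bp downstream of the mRpL23 start. At mRpS16, which shares its promoter with the chromatin factor gene cg, it was 4.67, 4.40 and 4.74, and the summit lay at -65 bp of mRpS16 and -32 bp of cg.

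Other lists of housekeeping genes were also often found in member pairs. A share of 57.1% of 35 DNA replication genes, 61.9% of 21 nuclear pore genes, 54.5% of 33 spliceosome genes, 52.0% of 25 Mediator genes and 48.5% of 33 aminoacyl-tRNA synthetase genes were in member pairs. The 40 complex I genes had 40%, the 54 genes of complexes II to V 31.5%, the 48 proteasome genes 37.5%, the 54 translation factors 27.8%, the 25 general transcription factors and TAFs 40%, the 30 RNA polymerase subunits 33.3%, the 33 V-ATPase subunits 30.3% and the 15 mitochondrial import genes 26.7%. Of the 8 subunits of the chaperonin CCT, 4 were in member pairs. These shares stand beside 20% of all protein-coding genes, and beside the share of each list with a head-to-head partner at all, which ran from 33.3% for mitochondrial import to 87.9% for the spliceosome and was 36.2% for all genes. Among genes with a partner, 52.6% to 80.0% of each of these lists and 55.4% of all genes were in a member pair.

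The strongest examples came from varied machines. SmD3/Oda, with a core protein of the spliceosomal snRNPs, had a relative signal of 5.51, 5.77 and 5.51. The licensing factor gene dup, the fly Cdt1, shared with the kinase gene SRPK a peak of 4.45, 3.83 and 5.22. Vha55, a subunit of the vacuolar proton pump, had 5.21, 4.58 and 5.36, eIF3a 5.17, 5.10 and 4.27, and COX6B, a subunit of cytochrome c oxidase, 4.26, 4.11 and 4.47. The replicates of these 5 lay between 3.83 and 5.77, all below those of the 25 strongest members.

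The lists of chemosensory receptors and cuticle proteins had 1 gene each in a member pair. Of 119 odorant and gustatory receptor genes 1 was in a member pair, Gr63a, a receptor for carbon dioxide, and of 92 cuticle protein genes 1, Lcp9. In both cases the summit was nearer the partner. It lay at -220 bp of Gr63a and -77 bp of Lamtor4, and at -416 bp of Lcp9 and -73 bp of CG3594. Of these lists, 16 and 11 genes had a head-to-head partner.

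**Figure D4:**
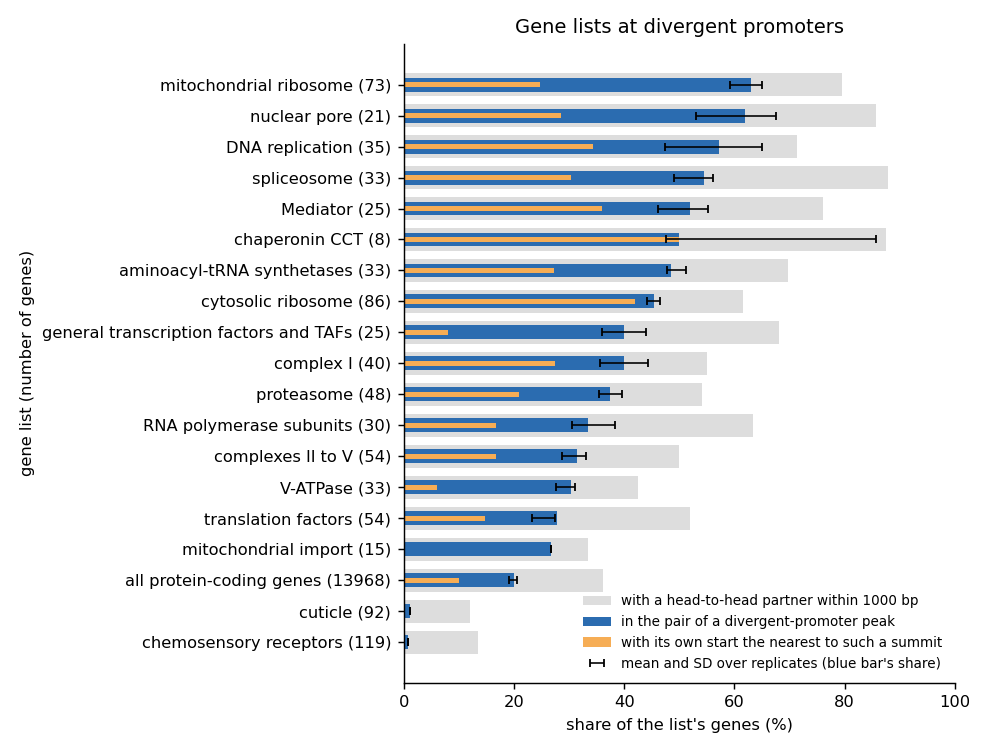
Gene lists at divergent promoters, as the share (%) of each list's genes. Wide grey bars are genes with a head-to-head partner in the annotation, blue bars genes in the pair of a divergent-promoter peak, narrow orange bars those whose own start is the nearest to the summit, and error bars the mean and SD of the blue share over 3 replicates. The cytosolic ribosome has 36 of 39 genes nearest, the mitochondrial ribosome 18 of 46.

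A word was counted on either strand at up to 50 bp from each summit, and also in equally wide windows 500 bp away on either side. TATCGATA was at 166 members (10.4%), at 9.62% of unidirectional peaks and at 7.63% of all optimal peaks, and in 0.312% of the members' side windows. CGATA, which TATCGATA contains, was at 628 (39.2%), 36.8%, 31.5% and 11.3% in the same order. GGTCACAC was at 112 (6.99%), 8.22%, 5.81% and 0.593%. All 3 were thus far more frequent at the members' summits than beside them. Side windows differ from summit windows in more than distance, since 79.0% of their centres were in exons, against 25.2% of the summits, and their mean GC content was 49.5% against 38.7%. At the summits of unidirectional peaks the mean GC content was 41.4%. The part of base content in word differences between both classes was not tested.

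The difference in share between divergent and unidirectional promoters averaged 0.77 percentage points ± 1.12 (SD, n = 3) for TATCGATA and -0.45 ± 0.677 for GGTCACAC over replicates, less than the spread between replicates. CGATA was higher at divergent promoters in 3 of 3 replicates, by 2.75 points ± 0.992. The sign for CGATA and TATCGATA in the optimal set turned when start sites had to lie within 250 bp or when each gene had only its outermost start, and that for GGTCACAC when words were sought within 100 bp. In that wider window the difference for CGATA was 6.62 points. The exact sign-flip test over 3 replicates cannot give a p below 0.25, so none of the words could pass a threshold. At least 1 of TATCGATA, CGATA, GGTCACAC and CCGGAA was at 735 members (45.9%) and at 45.1% of unidirectional peaks.

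CCGGAAG, the form of ETS word that GABP prefers, was rare at divergent promoters. It was within 50 bp of 7 summits (0.437%), at 26 unidirectional peaks (1.04%) and at 1.25% of all optimal peaks, and in 0.936% of the members' side windows. The share was 0.366%, 0.296% and 0.394% in replicates 1, 2 and 3 at divergent promoters and 0.972%, 0.866% and 1.10% at unidirectional ones, without overlap. The shorter CCGGAA was added to the panel of 12 words. It was at 42 members (2.62%), 4.23% of unidirectional peaks and 4.74% of all optimal peaks, and in 5.09% of the members' side windows. CCGGAA was lower at divergent promoters in 3 of 3 replicates too, by a mean difference of -1.36 percentage points ± 0.169.

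Where it occurred, CCGGAAG went with high signal in some members. The 7 members had a median signal of 752, against 181 for the rest. They were CG34290/Uck with 3075, CG12929/RpL31 with 2406, CG16787/alpha-Catr with 1147, CG16956/CG42784 with 752 and CG17652/CG17646 with 201, and ssh/Nmnat and zip/uzip with 112 each. The gene ssh encodes a cofilin phosphatase, Nmnat an enzyme of NAD synthesis and zip the heavy chain of non-muscle myosin II. In the replicates' own strongest regions the median relative signal of divergent peaks with the word was 6.91 ± 2.12 and of those without it 1.13 ± 0.013 (SD, n = 3). Each median with the word rests on very few regions, 0.366%, 0.296% and 0.394% of the divergent ones in replicates 1, 2 and 3. With CCGGAA the corresponding values were 1.78 ± 0.331 and 1.13 ± 0.0092. Members with TATCGATA, CGATA or GGTCACAC had median signals of 179, 181 and 172, near the 181 of all members.

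Since words were sought only within 50 bp of summits, their positions relative to the start sites are bound to those of the summits. TATCGATA lay a median of 29 bp upstream of the nearest start of the pair (position -29, quartiles -48.5 and -8 bp), and 142 of 166 (85.5%) lay between the start sites, close to the 82.1% of all member summits that did. CGATA lay at a median of -32 bp and GGTCACAC at -14.5 bp. GGTCACAC was on the same strand as the nearest gene in 73 cases and on the opposite strand in 39, and at unidirectional promoters in 151 and 55 of 206. CGATA showed little strand preference, with 330 and 298. TATCGATA and GGTCACAC occurred together at 10 members.

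TATCGATA, CGATA and CAGCTG were more frequent at narrow pairs than at wide ones. TATCGATA was within 50 bp of the summit in 16.0% of the members with start sites under 100 bp apart, 14.1% at 100 to under 200 bp, 5.94% at 200 to under 300 bp, 10.5% at 300 to under 500 bp and 5.79% at 500 to 1000 bp. In the narrowest class it was 14.6%, 14.2% and 15.7% in replicates 1, 2 and 3, and at 200 to under 300 bp 6.94%, 6.60% and 8.12%, without overlap. Not all narrow and wide classes were apart. At 100 to under 200 bp it was 13.7%, 9.22% and 13.3%, which overlapped the 9.89%, 9.28% and 9.44% at 300 to under 500 bp. CGATA had 49.8% and 50.5% in the narrower classes and 29.9%, 38.1% and 33.1% in the wider ones. GGTCACAC followed no such order, with 10.9%, 6.31%, 4.79%, 6.43% and 9.09% from the narrowest class to the widest, and in replicate 3 the widest class had 10.9% and the narrowest 10.7%. CAGCTG, the Ohler 5 E-box, had 17.1% in the narrowest class and 9.71%, 8.22%, 7.17% and 3.31% in the others. TATAAA, the TATA word, was less frequent in the narrower classes, with 9.22% and 10.7% under 200 bp, 18.7% at 200 to under 300 bp, 14.5% at 300 to under 500 bp and 14.9% at 500 to 1000 bp. This division was made after the data were seen, and in narrow pairs the window around the summit covers more of the space near the start sites.

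**Figure D5:**
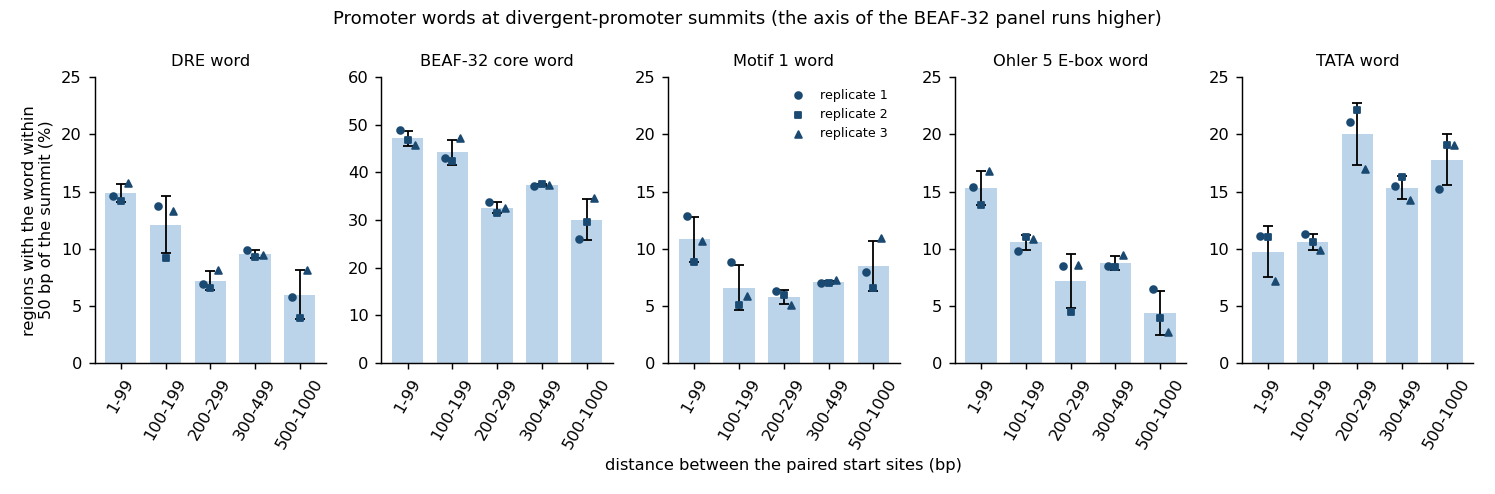
Share of divergent-promoter regions (%) with each word within 50 bp of the summit, by the distance between the paired start sites. Bars are means over the strongest regions of 3 replicates, error bars SD and symbols replicates; the axis of the BEAF-32 panel reaches 60% and the others 25%. The DRE word is at 14.8% ± 0.785 in the narrowest class and at 7.22% ± 0.800 at 200 to under 300 bp.

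The members also differed from unidirectional peaks in some words of other factors. GAGAGAG, the word of the GAGA factor, was at 8 members (0.499%) and at 1.72% of unidirectional peaks, lower in 3 of 3 replicates by a mean difference of -1.28 points ± 0.203. TATAAA was at 228 (14.2%) and 12.1%, higher in 3 of 3 replicates by 3.11 points ± 1.20. It was in 5.37% of the members' side windows and in 11.8% of those of unidirectional peaks. CTCTTTC was at 0.999% and 1.92%. CAGCTG was at 9.30% and 8.94%, TGACTCA, the AP-1 word, at 0.936% and 1.24%, and CAGGTAG, the word of the early embryonic activator Zelda, at 0.499% and 0.279%. CACGTG was at 1.31% and 1.44% and GCGCATGC at 0.25% and 0.319%. The gene of Ets97D itself had 2 optimal peaks within 500 bp of a start site, the stronger with a signal of 303, and its promoter was unidirectional.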

How the data were processed

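Chromatin immunoprecipitation with sequencing was done on 3 biological replicates of Delg-GFP embryos, which form 1 group, per the labels. The deposited lists hold, per region, a signal value that the authors computed from ChIP against a control, on a scale they do not state. Per the text deposited beside the lists, there is a list of peaks and background for each replicate and for all replicates, and the optimal set of 5595 peaks is what the authors kept after their IDR test. The sources used here give no aligner, peak caller or IDR threshold. Read counts are not part of these lists, which leaves the depth of each sample unknown and allows no counting interval. The dm3 lists were not used here.

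Start sites were those of all protein-coding transcripts of the Ensembl 115 annotation of Release 6, and region ends lay within the lengths of all 7 chromosome arms. Each member was paired with the minus- and plus-strand start sites of smallest summed distance to its summit. A replicate's strongest regions were its 5595 of highest signal, and summits within 150 bp counted as shared. Sequences were shown and counted only for members outside chromosome arm 2R. Gene lists were made from symbol patterns. The named members were the 25 of highest signal found in all 3 replicates, up to 3 per gene list, the pairs with both genes in a list and the 3 widest and 3 narrowest pairs. Members, gene lists and words were chosen with earlier results of these data known. Shares over regions or genes are described beside those of all peaks or genes. The 2-sided exact sign-flip permutation test was run over the 3 replicates. The scripts were tested on simulated data. The limit on distance, the start sites used, the signal threshold, the matching distance, the word window and the replicates included were varied. Python 3.11.15, NumPy 2.4.6, pandas 2.3.3, SciPy 1.17.1 and matplotlib 3.10.9 were used.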

Additional observations from a re-analysis of the deposited data

How the results depend on the processing

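Differences between divergent and unidirectional promoters kept their sign in 47 of 52 recomputed values, 19 of which moved by more than 1.5 times, and changed sign in 5. Other shares and distances stayed within 1 SD between replicates in 13 of 31. Over the settings tried on the optimal set, the occupied share differed by 25.2 to 35.2 points, the median signal by 0.032 to 0.23 (log2), and the word shares by -0.39 to 1.78 points for TATCGATA, -2.81 to 1.82 for GGTCACAC, -0.95 to 6.62 for CGATA and -0.88 to -0.53 for CCGGAAG. With start sites within 250 bp there were 976 members (17.4% of optimal peaks), start sites a median of 202 bp apart, 82.8% of members found in all 3 replicates, and the divergent minus unidirectional difference was -0.39 percentage points for TATCGATA and -0.95 for CGATA. With 1000 bp there were 1991 members, 35.6% of optimal peaks, and the median distance was 307 bp. With only the outermost start of each gene the share was 26.0%, the distance 262 bp, summits between the start sites 77.7%, and the word differences -0.066 for TATCGATA and -0.55 for CGATA. With the 50% of peaks of highest signal there were 945 members (33.8%), a distance of 265 bp, 86.2% of summits between the start sites and 97.7% found in all 3 replicates. That last share was 50.9% when summits had to match within 50 bp, 85.9% within 300 bp, 96.0% in the replicates' full lists and 82.6% to 85.8% when leaving out 1 replicate. With words within 100 bp the difference for GGTCACAC was 1.82 points. The cause of each sign change was not tested. No paired analysis was possible because the samples form 1 group. Depth is unknown, and 3 replicates allow no exact sign-flip p below 0.25.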

Other observations

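At 6 gene pairs with a member peak both genes belonged to the gene lists, and the values given are of each pair's strongest peak. Besides RpS27/Nup37 and RpL28/eIF1 these were mRpL55/ATPsynD, which joins the mitochondrial ribosome to ATP synthase and had a relative signal of 1.45, 0.840 and 0.924 in replicates 1, 2 and 3, and COX8/VhaM9.7-b, which joins cytochrome c oxidase to the vacuolar proton pump and had 1.19, 1.16 and 0.978. RPA1/Mcm2 joins the large subunit of the single-strand DNA binding complex to a subunit of the replicative helicase, and had 0.606, 0.903 and 0.692 with the summit at -41 bp of Mcm2 and -478 bp of RPA1. Taf10b/Taf10 joins paralogous TFIID subunit genes whose start sites lie 45 bp apart, and had 0.567, 0.668 and 0.645. Only RPA1/Mcm2 and Taf10b/Taf10 had both genes in the same list.

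The narrowest pairs had their start sites 1 bp (CG4730/CG5039), 2 bp (dpa/didum) and 6 bp (CG3032/CG4593) apart. At CG4730/CG5039 the relative signal was 1.07, 0.880 and 0.854, and at dpa/didum, which joins a helicase subunit gene to a myosin V gene, the peak over these start sites had 0.743, 0.817 and 1.35. A further member peak of dpa/didum, with other start sites 270 bp apart, had 2.66, 2.60 and 2.59. The widest pair, CG16956/CG42784, had start sites 856 bp apart and held CCGGAAG, with a relative signal of 3.68, 5.57 and 4.30, all above the 0.634 to 0.860 of Atg16/Prtl99C, whose start sites were 849 bp apart. The peak at pyx/CG33229, with start sites 783 bp apart, had 1.59 in replicate 1 and 1.49 in replicate 3 and no region within 150 bp in replicate 2.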
